A study of Homo sapiens with 6 samples.

Results

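The balance between anti-apoptotic and pro-apoptotic BCL2 family transcripts was examined through 10 of the 28395 genes in the count table, chosen by symbol. The 4 anti-apoptotic members were *BCL2*, *BCL2L1* (BCL-XL), *BCL2L2* (BCL-W) and *MCL1*. The 6 pro-apoptotic members were *BAX*, *BCL2L11* (BIM), *BBC3* (PUMA), *PMAIP1* (NOXA), *BID* and *BCL2L13*. All 10 passed the filter on low counts, with 142 to 5870 reads per library.

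RNA was sequenced from NCI-H146 (H146), an established small cell lung cancer (SCLC) cell line whose genotype is labelled WT, on day 2 after siRNA transfection. Cells of 3 biological replicates received a negative control siRNA, and cells of 3 others received an siRNA against *KIFC1*, a kinesin motor that clusters extra centrosomes at the spindle poles (siKIFC1). The comparison asked how transcript levels differed once *KIFC1* was depleted. The labels call the replicates biological without saying whether the cultures were separate, so p-values measure only the spread between these samples of 1 cell line.

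The BCL2 family decides whether the outer membrane of the mitochondrion stays intact. The anti-apoptotic proteins hold the membrane closed by binding the effectors BAX and BAK and the BH3-only proteins, which are the stress sensors of the family. Once the effectors are free they open pores, cytochrome c leaves the mitochondrion and caspases are activated. SCLC often carries abundant BCL2, and its near-universal loss of p53 removes a main activator of *BBC3*, *PMAIP1* and *BAX*.

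Libraries held 15392374 to 17754458 reads on genes. *KIFC1* had 14, 4 and 14 reads with control siRNA and 1, 1 and 0 reads with siKIFC1, at least 3.23-fold lower when a floor of 3 reads was set for each siKIFC1 library. Of the 32-base words of its canonical transcript, 87.8% also occur on alternate sequences of GRCh38, against at most 0.128% for any member, and how reads with several alignments were counted is not stated. Its Benjamini-Hochberg adjusted p in edgeR's quasi-likelihood test was 0.0739, and 0.00459 once the replicate number entered the fit as a block. The summed level of 9 neuroendocrine markers was 2960 to 3370 CPM (reads relative to the library's total, scaled by edgeR's TMM factors) with control siRNA and 3090 to 3630 CPM with siKIFC1, although *NEUROD1* had 0 to 5 reads. Markers of fibroblasts, leukocytes, endothelium, squamous and alveolar epithelium (11 genes) summed to 33.6 to 47.7 CPM and 35.0 to 43.3 CPM. *TP63*, a squamous marker, was the largest part, with a mean of 24.1 CPM with control siRNA and 21.5 CPM with siKIFC1. *COL1A2* had 113 to 197 reads per library, *COL1A1* 28 to 59, *PTPRC* 21 to 57 and *CD68* 17 to 58. *DCN*, *CD3E* and *SFTPC* had at most 3 reads in any library.

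To place the members on a common scale, reads were divided by each gene's merged exon length and expressed relative to the library's sum of such values (TPM). Levels are averages over a whole culture, in which fewer cells with a transcript and less RNA per cell cannot be told apart. *PMAIP1*, a BH3-only gene whose protein binds chiefly MCL1, was the most abundant member with control siRNA at 502, 484 and 492 TPM, above 99.1% of the genes with a read. *MCL1*, which encodes a short-lived anti-apoptotic protein, followed at 188, 199 and 222 TPM. *PMAIP1* therefore stood 2.42-fold over *MCL1* and their ranges did not meet.

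The anti-apoptotic gene *BCL2L1* had 112, 121 and 116 TPM and the effector *BAX* 106, 111 and 113 TPM, and these ranges overlapped. *BID*, whose protein is cleaved by caspase-8 to carry a death receptor signal to the mitochondrion, was 2.86-fold lower than *BAX* at 38.4 ± 1.00 TPM (SD, n = 3). *BCL2L11*, which encodes the BH3-only protein BIM, had 31.4 ± 3.45 TPM, *BCL2* 25.7 ± 3.75 TPM and *BCL2L2* 23.0 ± 3.54 TPM (SD, n = 3). Along this stretch of the order, *BCL2L11* overlapped *BCL2*, and *BCL2* overlapped *BCL2L2*.

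The lowest members were *BCL2L13* at 16.5 ± 0.572 TPM and *BBC3* at 14.2 ± 1.47 TPM (SD, n = 3). *BCL2L13* encodes an atypical family protein of the mitochondrial outer membrane that is also known as a mitophagy receptor, and *BBC3* encodes a BH3-only protein that can bind every anti-apoptotic member. Even *BBC3* stood above 58.3% of the genes with a read. The order depended on gene length: with the canonical transcript in place of the merged exons, *BAX* moved from rank 4 to rank 2, while *PMAIP1* stayed at rank 1 and *BBC3* at rank 10.

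**Figure D1:**
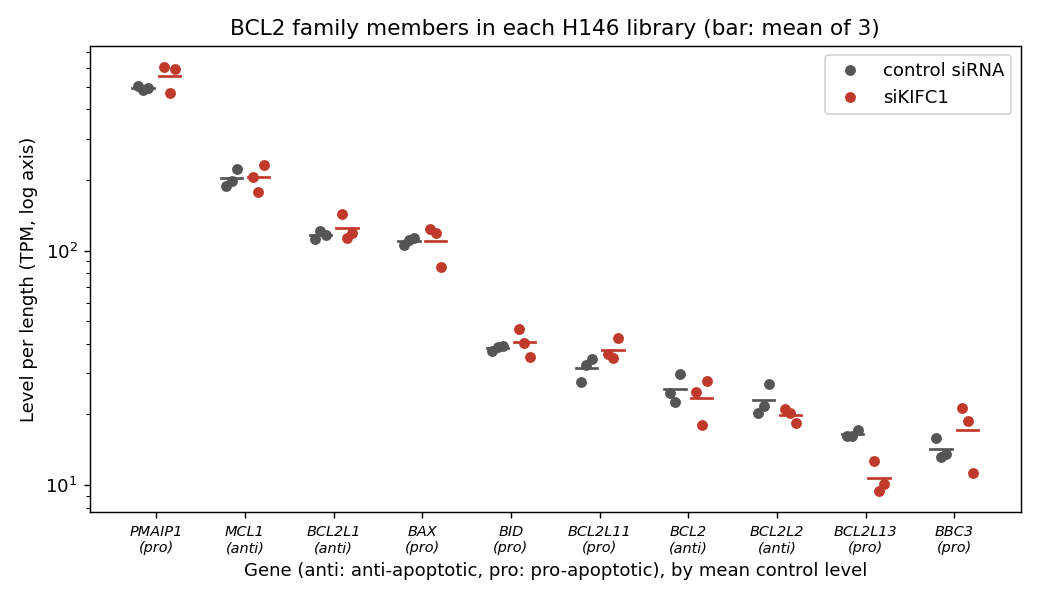
Level of each member in each H146 library, in TPM on a log axis, ordered by the control mean. Points are libraries and bars are means of 3. *PMAIP1* is highest and *BBC3* lowest with control siRNA, and the siKIFC1 points of *BCL2L13* (9.41 to 12.6 TPM) all lie under its control points (16.2 to 17.2 TPM).

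Few genes carried each side of the balance. *MCL1* held 55.1% ± 0.994 of the summed anti-apoptotic level with control siRNA and *BCL2L1* 31.7% ± 2.03, against 6.96% ± 0.71 for *BCL2* and 6.22% ± 0.529 for *BCL2L2* (SD, n = 3). On the pro-apoptotic side, *PMAIP1* held 70.1% ± 0.962 and *BAX* 15.6% ± 0.475 (SD, n = 3). *BID*, *BCL2L11*, *BCL2L13* and *BBC3* took 5.46%, 4.47%, 2.35% and 2.02%. The pro-apoptotic shares depended on the length used: with the canonical transcript, chosen after the data were seen, *PMAIP1* held 51.8% ± 1.09 and *BAX* 32.7% ± 0.76, while *MCL1* held 54.3% ± 1.02 of the anti-apoptotic level (SD, n = 3).

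The summed anti-apoptotic level divided by the summed pro-apoptotic level was 0.489, 0.524 and 0.558 in the control libraries, a mean of 0.524 ± 0.0341 (SD, n = 3). Every control library lay below 1. This position rested on *PMAIP1* and on the division by length, since the ratio was 1.75 without *PMAIP1*, an alternative chosen after the data were seen, and 1.14 when CPM was used without length. These are ratios of transcripts and say nothing of the protein levels.

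With siKIFC1 the ratio was 0.466, 0.475 and 0.508, a mean of 0.483 ± 0.0223 (SD, n = 3). The groups overlapped, because siKIFC1 replicate 3 lay above control replicate 1. Within each replicate number, however, the ratio was lower with siKIFC1, by a log2 difference of -0.07, -0.14 and -0.13, and the difference of the group means was -0.11. Without *PMAIP1* the difference was -0.01. It is given as a description, with no test.

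**Figure D2:**
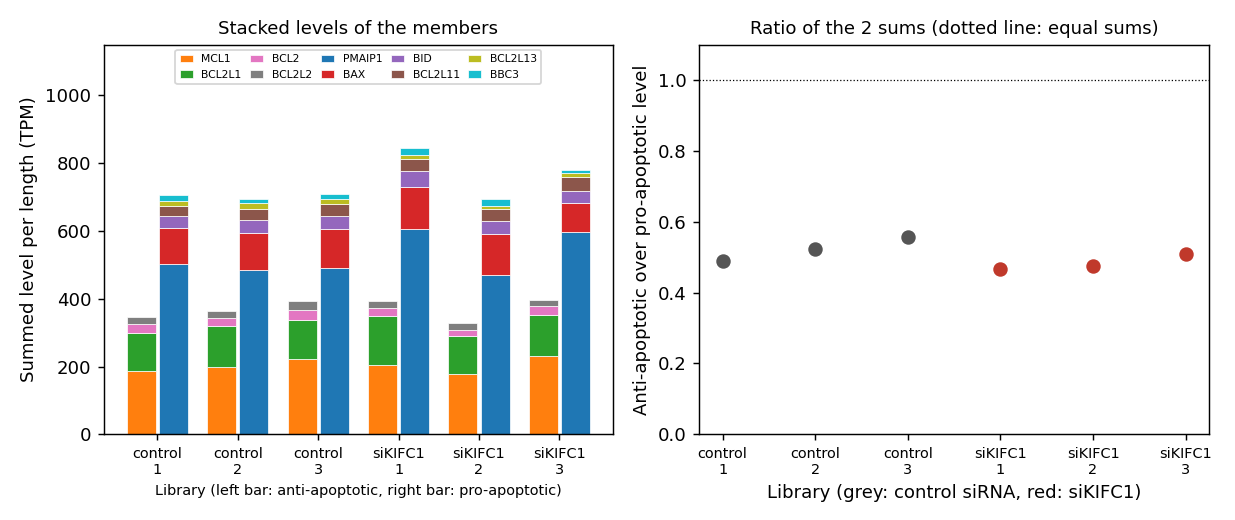
Left, stacked TPM of the 4 anti-apoptotic (left bar) and 6 pro-apoptotic members (right bar) in each library. Right, ratio of the 2 sums, with a dotted line where they are equal: it is 0.489 to 0.558 with control siRNA and 0.466 to 0.508 with siKIFC1, and every library lies under 1.

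Against this baseline, each member was compared between siKIFC1 and control siRNA by edgeR's quasi-likelihood test on the counts, with adjustment over all 14777 genes tested. None of the 10 members passed an adjusted p of 0.05, a threshold passed by 103 genes, or 0.697% of those tested. In the fit with the replicate block, 1 of 10 members passed, *BCL2L13* (lower), against 5.83% of all genes. At an unadjusted p under 0.05 without the block, 2 of 10 passed, *BCL2L13* (lower) and *BCL2L11* (higher), against 9.26% of all genes. DESeq2 called *BCL2L13* alone. The same 2 genes were the members whose groups did not overlap in CPM, against 15.5% of all genes. With only 10 members, such counts speak for single genes and not for the family.

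The log2 fold change was positive in 7 members and negative in 3, with a median of 0.07, beside a median of 0.01 over all genes tested, of which 7698 were positive and 7079 negative. Medians were -0.04 for the 4 anti-apoptotic members (2 positive, 2 negative) and 0.15 for the 6 pro-apoptotic members (5 positive, 1 negative).

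**Figure D3:**
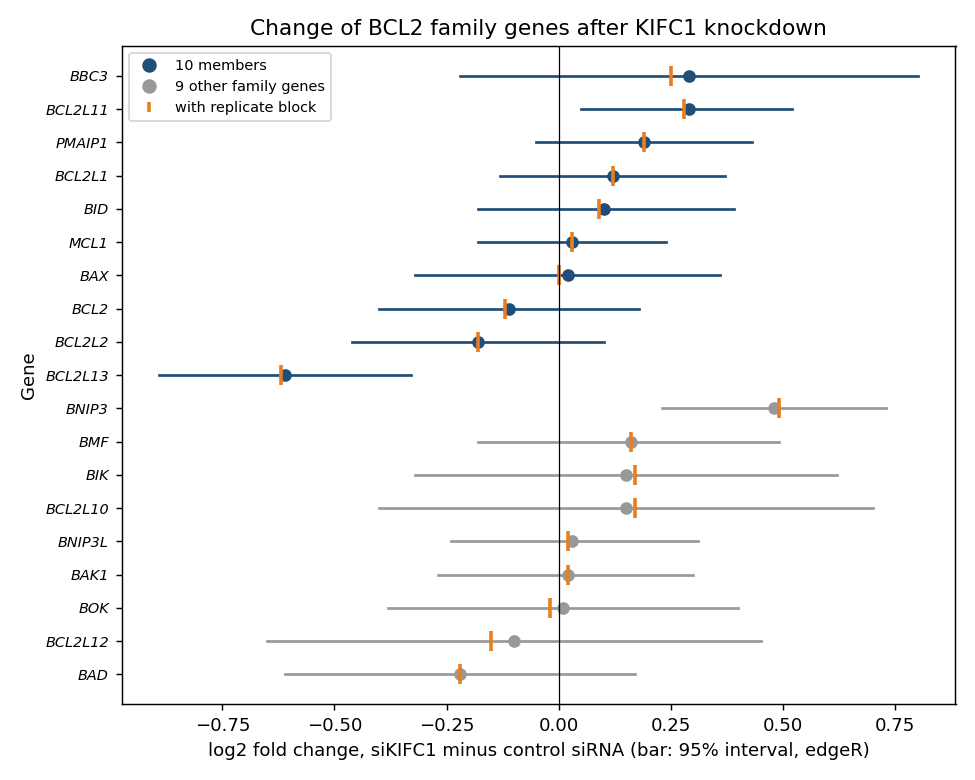
log2 fold change (siKIFC1 minus control siRNA) of the 10 members and of 9 other BCL2 family genes, with 95% intervals from edgeR and an orange mark for the fit with the replicate block. *BCL2L13* (-0.61) lies farthest from 0, and among the members its interval and that of *BCL2L11* (0.05 to 0.52) leave out 0.

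*BCL2L13* had the largest difference of the 10 members. Its level was 33.4, 31.7 and 30.4 CPM with control siRNA and 24.1, 19.6 and 18.8 CPM with siKIFC1, from 507 to 559 and 298 to 378 reads. Every siKIFC1 library lay below every control library. The log2 fold change was -0.61 ± 0.13 (SE), a fold of 0.655 (95% interval 0.538 to 0.797), with an edgeR adjusted p of 0.0581. The call depended on the fit: the adjusted p was 0.000306 with the replicate block, 0.00454 with DESeq2, 0.00484 with no filter on low counts and 0.0237 without siKIFC1 replicate 3, and reached 0.256 when another library was left out. Its share of the pro-apoptotic sum was 2.35% ± 0.0669 with control siRNA and 1.38% ± 0.0966 with siKIFC1 (SD, n = 3). By unadjusted p it ranked 130 among the genes tested.

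*BCL2L13* lies on chromosome 22 of GRCh38.p14 from 17628877 to 17730855 on the plus strand. Its nearest neighbour among the members is *BID*, from 17734138 to 17774665 on the minus strand, so that the genes end towards each other with 3282 bases between them. Their log2 fold changes were -0.61 and 0.10, with intervals that did not meet (-0.89 to -0.33 and -0.18 to 0.39). As the member with the largest difference, *BCL2L13* is shown with 1 of its 3 RefSeq promoter windows, chr22:17638507-17638806 on the plus strand, which runs from 250 bases before a start site to 50 after it. Capitals mark GGGCGG, the core of the GC box bound by SP1 family factors, on either strand. The window shown had the most matches of the 3, with 2 at a GC content of 63.7%, against 1 at 52.7% and 0 at 46.0%.
BCL2L13 promoter: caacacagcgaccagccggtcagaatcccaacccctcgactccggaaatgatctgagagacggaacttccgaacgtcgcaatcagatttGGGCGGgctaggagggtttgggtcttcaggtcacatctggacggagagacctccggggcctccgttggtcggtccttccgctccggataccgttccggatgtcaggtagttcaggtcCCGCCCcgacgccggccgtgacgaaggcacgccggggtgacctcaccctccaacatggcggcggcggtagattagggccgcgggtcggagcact
GGGCGG occurred on either strand in 10 of the 15 windows of the 8 members with an entry, some of which overlap each other, against 45.0% of 35116 windows of all genes. TATAAA, read on the gene's own strand, occurred in 1 of the 15, of *BCL2L1*, against 7.33%. GC content of the 15 member windows was 46.0% to 78.0%, beside a median of 58.7% over all windows. These matches describe the letters in the windows and are not binding sites.

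Of the other pro-apoptotic members, *BCL2L11* had the smallest unadjusted p. It had 50.1, 55.8 and 53.5 CPM with control siRNA and 61.2, 63.7 and 69.3 CPM with siKIFC1. All siKIFC1 libraries lay above all control libraries. The log2 fold change was 0.29 ± 0.11 (SE), with an edgeR adjusted p of 0.392, and of 0.0717 with the replicate block. In GENCODE 44, exons of the long noncoding gene *MIR4435-2HG* on the opposite strand cover 10.8% of its exon bases, and whether the counting used strand is not stated.

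*PMAIP1* had 295, 270 and 249 CPM with control siRNA, and 332, 280 and 316 CPM in the siKIFC1 libraries. In CPM it was higher with siKIFC1 in 3 of 3 replicate numbers. The groups overlapped, as siKIFC1 replicate 2 lay below control replicate 1. In TPM, replicate 2 went the other way, from 484 to 471. The log2 fold change was 0.19 ± 0.11 (SE, 95% interval -0.05 to 0.43), with an edgeR adjusted p of 0.681. With the replicate block the interval was 0.03 to 0.35, which leaves out 0, and the edgeR adjusted p was 0.18.

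The effector *BAX* had 74.0, 73.3 and 67.3 CPM with control siRNA and 80.6, 84.0 and 53.3 CPM with siKIFC1. Among the siKIFC1 libraries, replicates 1 and 2 were the highest of the 6 libraries and replicate 3 the lowest. *BBC3* had the same arrangement, at 13.6, 10.8 and 9.97 CPM with control siRNA and 17.0, 16.3 and 8.69 CPM with siKIFC1. *BID* shared it, at 44.2, 44.0 and 39.8 CPM and 51.0, 48.7 and 37.7 CPM. In each of these 3 genes, siKIFC1 replicates 1 and 2 exceeded every control library while replicate 3 fell short of every control library. The arrangement was not particular to pro-apoptotic members, as the neuroendocrine markers *DLL3* and *INSM1* had it too. *DLL3* had 62.6, 60.3 and 58.6 CPM with control siRNA and 78.3, 86.3 and 53.4 CPM with siKIFC1. *INSM1* had 740, 670 and 629 CPM and 818, 758 and 613 CPM.

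No group difference was resolved for *BAX*, *BBC3* or *BID*. The log2 fold change was 0.02 ± 0.15 for *BAX*, 0.29 ± 0.23 for *BBC3* and 0.10 ± 0.13 for *BID* (SE), with edgeR adjusted p of 0.989, 0.806 and 0.899. Without siKIFC1 replicate 3 they were 0.20, 0.54 and 0.22, with adjusted p of 0.265, 0.0743 and 0.250. Intervals with all libraries and no block still allowed folds of 0.803 to 1.28 for *BAX* and 0.86 to 1.74 for *BBC3*. With the replicate block, the log2 intervals were -0.21 to 0.20 for *BAX* and -0.04 to 0.55 for *BBC3*.

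**Figure D4:**
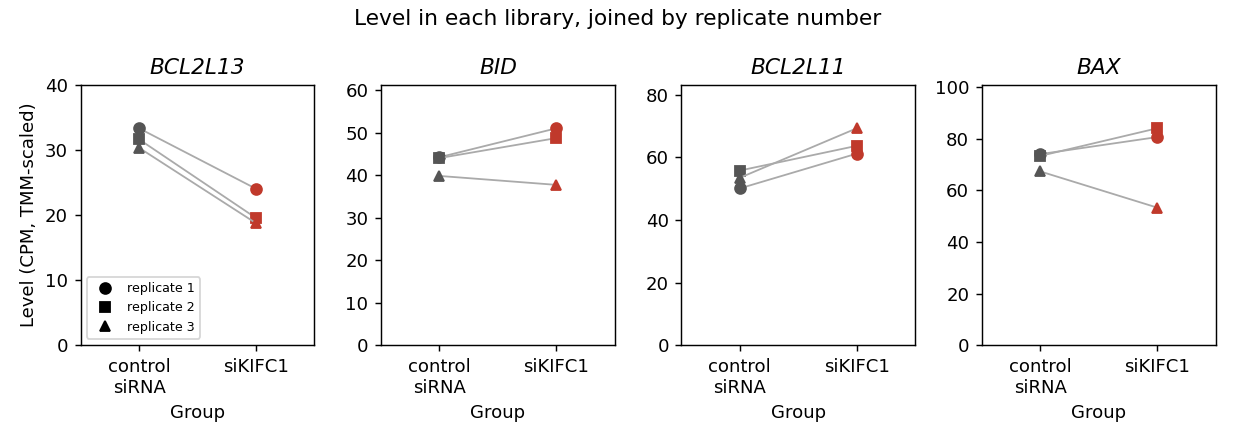
Level (CPM, TMM-scaled) of *BCL2L13*, *BID*, *BCL2L11* and *BAX* in each library, with lines joining the same replicate number and axes that start at 0. *BCL2L13* was lower and *BCL2L11* higher with siKIFC1 along all 3 lines, while *BID* and *BAX* went up in replicates 1 and 2 and down in replicate 3.

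Among the anti-apoptotic members, *MCL1* had 314, 317 and 320 CPM with control siRNA and 320, 301 and 350 CPM with siKIFC1. The siKIFC1 libraries lay on both sides of the control libraries, which were close together. Its log2 fold change of 0.03 ± 0.10 (SE) had the narrowest interval of the members, which allowed folds of 0.88 to 1.18, and its edgeR adjusted p was 0.968.

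*BCL2L1* had 127, 129 and 113 CPM with control siRNA and 150, 130 and 121 CPM with siKIFC1. In CPM it was higher with siKIFC1 within every replicate number, but in TPM replicate 2 went from 121 to 113. The groups overlapped, with a log2 fold change of 0.12 (95% interval -0.13 to 0.37) and an edgeR adjusted p of 0.850. Exons of the antisense gene *ABALON*, which was not counted, cover 41.3% of its exon bases. Reads per gene do not separate its long anti-apoptotic splice form from the short pro-apoptotic form.

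*BCL2*, the founding member of the family and the target of venetoclax, had 84.0, 72.4 and 86.9 CPM in the control libraries and 78.8, 62.1 and 84.6 CPM in the siKIFC1 libraries. In CPM it was lower with siKIFC1 within every replicate number, but in TPM replicate 1 was about level, at 24.8 and 24.9. The groups overlapped. Its log2 fold change was -0.11 (95% interval -0.40 to 0.18), with an edgeR adjusted p of 0.892.

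*BCL2L2* had 26.3, 26.9 and 30.2 CPM with control siRNA and 25.6, 26.6 and 21.5 CPM with siKIFC1. In CPM the level was lower within every replicate number, but in TPM replicate 1 went from 20.2 to 21.1. The groups overlapped, and siKIFC1 replicate 3 was the lowest of the 6 libraries. The log2 fold change was -0.18 (95% interval -0.46 to 0.10), with an edgeR adjusted p of 0.772. Its value is uncertain, since 16.8% of its exon bases are shared with the readthrough gene *BCL2L2-PABPN1* on the same strand, which was counted separately.

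Ratios of binding partners were then taken within each library, where the scaling of libraries cancels and gene length does not affect the difference. The ratio of *BCL2* to *BCL2L11* was 0.897, 0.693 and 0.868 with control siRNA and 0.688, 0.521 and 0.653 with siKIFC1. These groups did not overlap, and the log2 difference within replicate numbers was -0.38, -0.41 and -0.41. Whether this ratio lay above or below 1 depended on the length used, since its control mean of 0.819 became 1.06 with the longest transcript and 1.14 with the canonical one. Since *BCL2L11* was one of the members with groups apart, the ratio repeats that difference in part.

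The ratio of *MCL1* to *BCL2L11* was 6.80, 6.15 and 6.48 with control siRNA and 5.66, 5.12 and 5.47 with siKIFC1, also without overlap. It largely repeats the *BCL2L11* difference, since the log2 fold change was 0.03 for *MCL1* and 0.29 for *BCL2L11*. The ratio of *MCL1* to *PMAIP1* was 0.374, 0.412 and 0.452 with control siRNA and 0.339, 0.378 and 0.389 in the siKIFC1 libraries. It was lower within every replicate number, by log2 differences of -0.14, -0.13 and -0.22, but the groups overlapped. The ratio of *BCL2L1* to *BAX* was 1.06, 1.09 and 1.03 with control siRNA and 1.15, 0.951 and 1.40 with siKIFC1, lower in 1 of 3 replicate numbers. The control means of both ratios also depended on length: that of *BCL2L1* to *BAX* was 0.716 with the longest and 0.531 with the canonical transcript, and that of *MCL1* to *PMAIP1*, 0.413, became 1.17 with no length. The spread of *BCL2L1* to *BAX* was wider with siKIFC1, where *BAX* was lowest in replicate 3.

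The remaining genes of the family were read from a list of 13, of which 9 were tested. None passed the adjusted threshold and 1 had an unadjusted p under 0.05, while 7 log2 fold changes were positive and 2 negative, and the median was 0.03. *BNIP3*, a hypoxia-regulated gene of the mitochondrial outer membrane with a role in mitophagy, had 45.1, 39.9 and 36.9 CPM with control siRNA and 59.3, 54.8 and 56.1 CPM with siKIFC1. The groups did not overlap. Its log2 fold change was 0.48 ± 0.11 (SE), with an edgeR adjusted p of 0.0926, of 0.00145 with the replicate block and of 0.0181 with DESeq2. *BAD*, a BH3-only gene, had a log2 fold change of -0.22 (95% interval -0.61 to 0.17). The other 4 genes of the list, *BCL2A1*, *HRK*, *BCL2L14* and *BCL2L15*, did not pass the filter and had at most 17 reads in any library.

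Downstream of the family, all 11 genes on a list of mitochondrial and caspase steps were tested. Of their log2 fold changes, 8 were positive and 3 negative, with a median of 0.05. In edgeR's test none passed, with or without the block, and 0 had an unadjusted p under 0.05 without it. The smallest unadjusted p in this list were those of *XIAP*, an inhibitor of caspases, at a log2 fold change of -0.28 ± 0.14 (SE), and of the outer membrane channel gene *VDAC2*, at 0.14 ± 0.10 (SE). Of 10 genes for turnover of the MCL1 and NOXA proteins, 5 were positive and 5 negative, with a median of -0.01, and none passed either fit, although 2 had an unadjusted p under 0.05 without the block. *BTRC*, which encodes a substrate receptor of an SCF ubiquitin ligase, had a log2 fold change of -0.30 ± 0.12, and *MARCHF5*, a mitochondrial ubiquitin ligase gene, had 0.25 ± 0.11 (SE).

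Of 13 genes of transcription factors with known BCL2 family targets, 6 log2 fold changes were positive and 7 negative, with a median of -0.01, and none passed without the block, where 1 had an unadjusted p under 0.05. *DDIT3*, which encodes the stress factor CHOP, had 22.0, 22.5 and 17.6 CPM with control siRNA and 26.6, 31.7 and 24.8 CPM with siKIFC1. These groups did not overlap, and the edgeR adjusted p was 0.318, and 0.0171 with the replicate block. *E2F1*, a cell cycle factor gene, had 166, 206 and 174 CPM with control siRNA and 142, 194 and 112 CPM with siKIFC1, with overlapping groups. Its edgeR adjusted p was 0.696, and 0.0395 with the replicate block. *ATF4*, which encodes a factor of the integrated stress response, had 240, 237 and 212 CPM with control siRNA and 284, 267 and 250 CPM with siKIFC1, with no overlap, a log2 fold change of 0.22 ± 0.10 (SE) and an edgeR adjusted p of 0.554.

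The 3′ UTRs of the members were read for GAGATCT and GCAACC, a pair of words picked from an earlier scan of these same libraries, so that their presence here is not independent evidence. GAGATCT occurred in none of the 10 canonical 3′ UTRs, that of *BCL2L13* with its 3321 bases included, against 8.96% of 12974 genes tested and 16.0% of those with a 3′ UTR within 20% of that length. GCAACC occurred in 3 of the 10, against 23.2% of genes and 40.3% of those near that length. The shares near that length were matched to *BCL2L13* and not to the 10 members, whose 3′ UTRs ran from 162 to 5279 bases. The sites in GRCh38, chr20:31665637-31665642 (minus strand), chr1:150577265-150577270 (minus strand) and chr2:111167387-111167392 (plus strand), are shown with the word in capitals, to let the flanks be compared.
BCL2L1 3′ UTR site: acctgattggtGCAACCcttacccctta
MCL1 3′ UTR site: gttgcaccctaGCAACCtagccagaaaa
BCL2L11 3′ UTR site: agaaatacccaGCAACCttctgtttgtt
A match is a description of letters and not of a site in use.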

How the data were processed

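H146 libraries (3 with control siRNA, 3 with siKIFC1, day 2) were grouped by their treatment labels. The authors aligned reads to GRCh38 with HISAT2 2.2.1, counted them per gene with featureCounts 2.0.8 and deposited raw counts for 28395 NCBI gene IDs; their methods also name DESeq2 1.46.0 in R 4.4.2. The annotation, the strand setting and the treatment of reads with several alignments are not given in the sources used here. Symbols were matched for 27745 IDs.

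The test was edgeR's quasi-likelihood F test (edgeR 4.0.16, R 4.3.3) with TMM factors and a robust fit. Genes were kept by filterByExpr with a minimum of 10 counts, and *KIFC1* was kept besides. P-values were adjusted by the Benjamini-Hochberg method over 14777 genes, with a threshold of 0.05. The biological coefficient of variation was 13.1%. Floors cover counting error only. TPM used merged exon lengths from GENCODE 44, found for 25978 genes with 94.7% of the counts. Promoter windows are those of RefSeq on GRCh38.p14, and 8 of the 10 members had an entry. Sequences and figures were handled with Python 3.11.15, pandas 2.3.3, numpy 2.4.6 and matplotlib 3.10.9. The test was tested on simulated data.

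The members, lists and tests were chosen with earlier results of these data known. Named were all 10 members, *KIFC1*, and, of each pathway list, the genes with an adjusted p under 0.05 in either fit and the 2 genes with the smallest unadjusted p.

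Both groups carry replicate numbers 1 to 3. After removal of group means, libraries with the same number correlated at 0.488, 0.386 and 0.454 across 11803 genes, which are not independent replicates. Others correlated at -0.424 to -0.031, but removal of group means forces negative values once the same-number values are positive. The numbers were taken to pair the libraries because the positive correlations fell on matching numbers. The fit with the number as a block stands beside results whose call it changes.

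Alternatives were the block, DESeq2 1.42.0, limma-voom (limma 3.58.1), scaling by DESeq2's size factors or by library size alone, a filter of at least 10 counts per library or none, leaving out each library, and other lengths or members in the ratios.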

Additional observations from a re-analysis of the deposited data

How the results depend on the processing

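With the replicate block (paired fit), 861 genes and 1 member were called, against 103 genes and 0 members in the unpaired fit. With no filter on low counts 265 genes and 1 member were called, with DESeq2 270 genes and 1 member, and with a library left out 24 to 468 genes and 0 to 1 members. The member called was *BCL2L13* each time. The block changed no other call among the members, and outside them it added those of *KIFC1*, *BNIP3*, *DDIT3* and *E2F1*. Leaving out siKIFC1 replicate 3 gave the 468 genes and also called *BNIP3*, *BTRC* and *XIAP* (adjusted p 0.0214, 0.0404 and 0.0437). Over the 20 genes named and 13 alternatives, 237 values kept their direction and side of the threshold, 15 passed it newly and 7 turned sign, at log2 fold changes between -0.10 and 0.0047. *BCL2* was 0.0047 without siKIFC1 replicate 2 (-0.20 to 0.0047 with a library left out), *MCL1* -0.03 without siKIFC1 replicate 3 (-0.03 to 0.07), and *BAX* -0.0024 with the block, -0.01 with limma-voom and -0.10 to 0.20 with a library left out. The control ratio of anti-apoptotic to pro-apoptotic level was 1.14 without length, 0.44 with the other family genes and 1.75 without *PMAIP1*, and its log2 change was -0.01 without *PMAIP1*. In the unpaired fit, the interval of *BBC3* still allowed a fold of up to 1.74. With the block its log2 interval was -0.04 to 0.55. The cause of these differences between settings was not tested.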
